A study of Mus musculus with 17 samples.

Results

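Transcripts of 7 regulators of G protein signalling (RGS genes), Rgs1, Rgs2, Rgs3, Rgs10, Rgs14, Rgs16 and Rgs19, were followed through 17 RNA-seq libraries of mouse spleen CD8 T cells. The members were taken by symbol from the deposited count tables, which list 24594 genes and 22 genes of the family. All 17 libraries came from cells labelled CD8+Thy1.1+, a congenic marker that every group carried. The genetic modification label divides them into 4 groups: Rosa KO (n = 5), taken as the control, and Asxl1 KO, Dnmt3a KO and Tet2 KO (n = 4 each). Tet2 removes cytosine methylation by oxidation, Dnmt3a lays down new cytosine methylation, and Asxl1 serves in the complex that takes ubiquitin off histone H2A. The series title places these regulators of clonal hematopoiesis in the context of CD8 T cell stemness during immunotherapy. How the genes were disrupted, the age and number of the animals, and any treatment before collection were not stated in the labels. The labels do not say that replicates came from separate animals, and a p-value here therefore reflects library-to-library spread alone, part of which may be technical.

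RGS proteins speed the hydrolysis of GTP by the alpha subunits of heterotrimeric G proteins and so end signals from G protein-coupled receptors, among them the chemokine and sphingosine 1-phosphate receptors that guide lymphocyte movement. In lymphocytes Rgs1 and Rgs16 are known as inducible regulators that damp chemokine responses, and RGS1 transcript is a familiar feature of tissue-resident and exhausted T cells. Rgs2 acts preferentially on Gq, Rgs3 is a larger regulator of Gi and Gq with several isoforms, Rgs10 and Rgs19 act on Gi family subunits, and Rgs14 also carries Ras-binding and GoLoco domains.

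Total counts ran from 6625833 to 40701203 per library, with a median of 21642477. By library number the samples formed 3 runs with gaps between them, which the labels do not call batches: run 1 (Rosa KO 1, Asxl1 KO 1, Dnmt3a KO 1 and 2), run 2 (Asxl1 KO 2, Dnmt3a KO 3 and 4, Tet2 KO 1 and 2) and run 3 (Rosa KO 2 to 5, Asxl1 KO 3 and 4, Tet2 KO 3 and 4). Run was a term in the test (edgeR's quasi-likelihood test over 13881 genes), and passing means an adjusted p under 0.05. The transcripts of the targeted genes did not pass in their own knockouts, with log2 fold changes of −0.13 for Asxl1, −0.06 for Dnmt3a and −0.26 for Tet2 against Rosa KO, and do not by themselves check the labels. The T cell genes Cd3e (1250 to 4970 CPM) and Cd8a (641 to 1240 CPM) were high in all 17 libraries, where CPM is the count scaled to library size after TMM normalisation. Defining transcripts of B cells were also present, with the summed level of 16 markers between 606 and 3350 CPM in Rosa KO, 722 and 1500 in Asxl1 KO, 750 and 2590 in Dnmt3a KO, and 180 and 2970 in Tet2 KO. In such bulk samples fewer cells of a type and less RNA per cell cannot be told apart.

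All 7 members had counts in 17 of 17 libraries and all 7 passed the low count filter. Per kilobase of exon (GENCODE M21), the mean level over the 17 libraries was highest for Rgs1, at 49.0 CPM per kb, followed by Rgs2 at 44.2 and Rgs19 at 37.2. Rgs3 (18.1 CPM per kb) and Rgs16 (17.1) were intermediate, and Rgs10 (9.68) and Rgs14 (5.89) were lowest. With the longest RefSeq-paired transcript as the length, Rgs1 was again highest (88.6 CPM per kb) and Rgs14 lowest (10.6), while Rgs19 (54.9) stood above Rgs2 (53.0) and Rgs10 (18.8) above Rgs16 (17.1). These neighbours in the order therefore depended on the gene model. Across libraries Rgs1 varied most by its standard deviation of log2 CPM (0.95) and Rgs19 least (0.50), against a median of 0.71 over all tested genes.

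Of the other 15 RGS genes in the tables, 8 could be tested, and 0 passed in any of the 3 comparisons with Rosa KO by edgeR or DESeq2 (0, 1 and 0 at an unadjusted p under 0.05 in Asxl1, Dnmt3a and Tet2 KO). Over all 13881 tested genes 1.64, 0.216 and 1.47% passed by edgeR, and 2181, 1115 and 1692 had such an unadjusted p. Rgs13, known from germinal centre B cells, reached 27.8 CPM in Dnmt3a KO 2 and averaged 6.04 CPM. Rgs12 averaged 4.27 CPM, Rgs18, a regulator abundant in platelets and megakaryocytes, 3.11 CPM, Rgs11 2.33 CPM and Rgs9 1.93 CPM. Rgs5, a pericyte gene, had counts in 4 libraries and 26.2 CPM in Asxl1 KO 1. Rgs20 averaged 0.853 CPM and Rgs8 0.391 CPM, and Rgs4, Rgs6, Rgs7, Rgs17, Rgs22 and Rgsl1 averaged at most 0.271 CPM. Rgs21 had 0 counts in the 364933314 counts of the 17 libraries, which allows up to 0.00822 CPM (3 counts, counting error only).

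**Figure D1:**
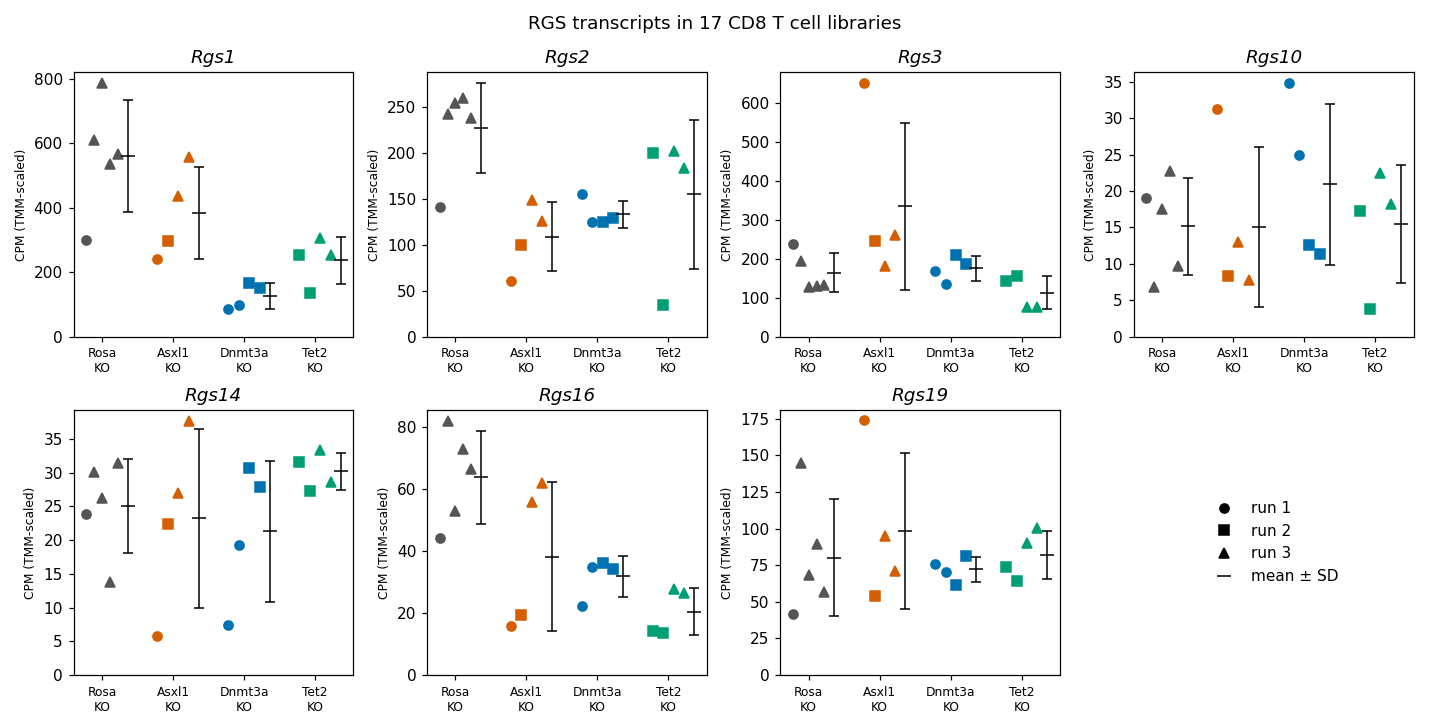
Level of each of the 7 RGS genes in CPM (TMM-scaled, linear axis from 0) in every library, by group. Marker shape gives the run of library numbers and the bars give the mean ± SD (n = 5 for Rosa KO, n = 4 for each knockout). All Dnmt3a KO libraries had less Rgs1 than any Rosa KO library.

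Against Rosa KO, the family did not move as a block. In Dnmt3a KO 1 of 7 members passed, Rgs1, where 0.216% of all tested genes passed. In Tet2 KO 2 of 7 passed, Rgs1 and Rgs16, against a background of 1.47%. In Asxl1 KO 0 of 7 passed by edgeR, against a background of 1.64%, and 0 by DESeq2, against 4.88%. At an unadjusted p under 0.05 in edgeR there were 4 of 7 members, beside 2181 of all 13881 tested genes. The 3 passing differences were all lower in the knockout. The comparisons share the Rosa KO libraries and are therefore not independent of each other. The median log2 fold change over all tested genes was 0.000428 in Asxl1 KO, −0.00298 in Dnmt3a KO and −0.0199 in Tet2 KO.

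**Figure D2:**
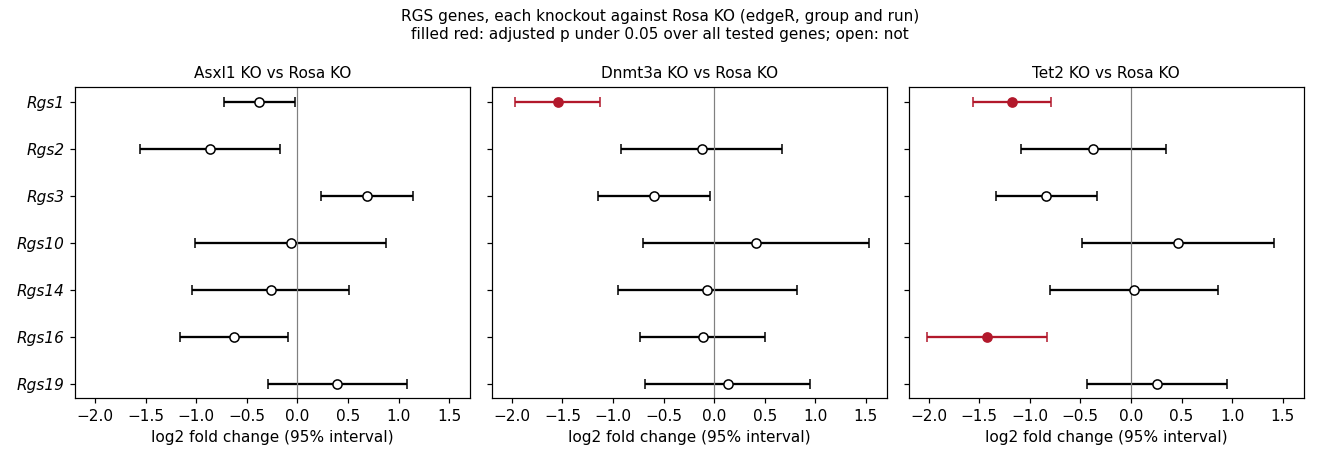
Log2 fold change of each RGS gene in Asxl1, Dnmt3a and Tet2 KO against Rosa KO, with its 95% interval from edgeR (group and run as terms). Filled red points passed at an adjusted p under 0.05 over all tested genes: Rgs1 in Dnmt3a KO (−1.55) and Tet2 KO (−1.18), and Rgs16 in Tet2 KO (−1.43).

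Rgs1 (NCBI gene 50778, mm10 chromosome 1, 144244669 to 144249104, minus strand) was lower in Dnmt3a KO and in Tet2 KO than in the control. Its level was 301, 609, 786, 536 and 567 CPM in Rosa KO 1 to 5. In Dnmt3a KO 1 to 4 it was 87.1, 98.8, 167 and 152 CPM, and in Tet2 KO 1 to 4 it was 253, 135.7, 305 and 253 CPM. Every Dnmt3a KO library lay below every Rosa KO library, while Tet2 KO 3 lay just above Rosa KO 1, the lowest control. The group means were 126.2 ± 39.2 CPM in Dnmt3a KO (SD, n = 4), 237 ± 71.7 in Tet2 KO (n = 4) and 560 ± 174 in Rosa KO (n = 5). The log2 fold change was −1.55 ± 0.20 (SE, adjusted p = 0.000421) in Dnmt3a KO, or 2.92-fold lower. In Tet2 KO it was −1.18 ± 0.19 (adjusted p = 0.000852), or 2.26-fold lower. Asxl1 KO 1 to 4 had 241, 296, 437 and 556 CPM of Rgs1, which overlapped the control, and the log2 fold change of −0.38 ± 0.17 did not pass (adjusted p = 0.285).

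The difference of Rgs1 was also seen among libraries of the same run. In run 1 Rosa KO 1 had 301 CPM against 87.1 and 98.8 CPM in the pair of Dnmt3a KO libraries, a log2 fold change of −1.69 with a single control library and so given without a test. In run 3 the 4 Rosa KO libraries had 536 to 786 CPM and the pair of Tet2 KO libraries 253 and 305 CPM, a log2 fold change of −1.16 (adjusted p = 0.000721). With run left out of the model the Tet2 KO difference was −1.24 and did not pass (adjusted p = 0.137), while that of Dnmt3a KO was −2.15 (adjusted p = 0.00103). With the mean log2 CPM of the B cell markers as a further term, Rgs1 stayed lower in Dnmt3a KO (−1.61, adjusted p = 0.000204) and in Tet2 KO (−1.17, adjusted p = 0.000658).

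Rgs16 (gene 19734, mm10 chromosome 1, 153740353 to 153745468, plus strand, 9.49 Mb from Rgs1) was lower in Tet2 KO. Its level was 44.3, 82, 53.0, 72.8 and 66.6 CPM in Rosa KO 1 to 5 and 14.1, 13.6, 27.8 and 26.3 CPM in Tet2 KO 1 to 4, so the groups did not overlap. The means were 63.8 ± 15.1 CPM (SD, n = 5) and 20.5 ± 7.67 CPM (n = 4), and the log2 fold change was −1.43 ± 0.29 (SE, adjusted p = 0.0104), or 2.69-fold lower. Within run 3 the log2 fold change was −1.34 (adjusted p = 0.00924). The call was lost without Tet2 KO 3 (adjusted p = 0.0968), without Tet2 KO 4 (adjusted p = 0.0886) and without the run term (−1.64, adjusted p = 0.11). It was also lost with replicate number as a further term.

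In the other knockouts Rgs16 did not pass against Rosa KO. Dnmt3a KO 1 to 4 had 22.1, 35.0, 36 and 34.1 CPM, all below the lowest control. Even so the fitted difference was −0.11 ± 0.30 (adjusted p = 0.962), against −1.003 without the run term (adjusted p = 0.422) and −0.63 within run 1 (1 control library, no test). Only 1 Rosa KO library shared a run with Dnmt3a KO, so group and run are separated here mostly through the other groups. Asxl1 KO 1 and 2 had 15.7 and 19.3 CPM of Rgs16, below every control, and Asxl1 KO 3 and 4, both of run 3, had 56.0 and 61.9 CPM, within the control range (log2 fold change −0.63 ± 0.26, adjusted p = 0.222).

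The promoter of Rgs16 is shown because this member passed in Tet2 KO and Tet2 and Dnmt3a act on the methylation of cytosine in CG dinucleotides. It is the 250 bases before the RefSeq start, GRCm38.p6 chr1:153740103-153740352, plus strand, with each CG in capitals.
Rgs16 promoter: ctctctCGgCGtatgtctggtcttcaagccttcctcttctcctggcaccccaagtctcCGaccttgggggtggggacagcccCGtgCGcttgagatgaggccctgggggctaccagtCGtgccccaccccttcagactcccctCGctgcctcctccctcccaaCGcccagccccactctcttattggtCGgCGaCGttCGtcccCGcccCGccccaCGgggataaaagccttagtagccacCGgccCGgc
The window held 17 CG dinucleotides, more than 76.5% of 32851 RefSeq promoter windows of the same length, whose median was 6. Searched on both strands, the CCAAT motif occurred in it once (33.8% of all windows hold it) and the GC box CCCCGCCC occurred as 2 overlapping matches that also contain CG (16.1% of windows). Methylation was not measured here, and these letters describe the window only.

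**Figure D3:**
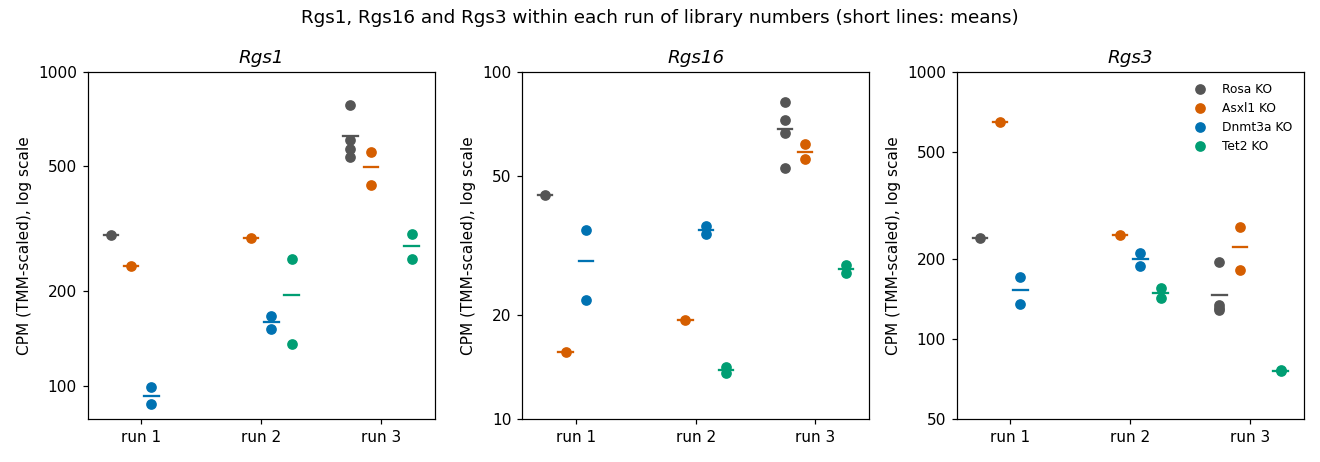
Level of Rgs1, Rgs16 and Rgs3 in CPM (log axis) in each library, separated by run of library numbers and coloured by group, with short lines for the mean of a group within a run. In run 3 both Tet2 KO libraries lay below all 4 Rosa KO libraries for each of the 3 genes, and in run 1 both Dnmt3a KO libraries lay below Rosa KO 1.

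Rgs3 (gene 50780, mm10 chromosome 4, 62559835 to 62703019, plus strand) was higher in Asxl1 KO than in the other two knockouts. Asxl1 KO 1 to 4 had 651, 245, 181 and 262 CPM and Tet2 KO 1 to 4 had 143, 155, 76.0 and 76.3 CPM, so every Asxl1 KO library lay above every Tet2 KO library. Asxl1 KO was 2.88-fold higher (log2 fold change 1.52 ± 0.24, SE, adjusted p = 0.00119). This call passed in 8 of 8 refits that each left out 1 library and within run 3 (1.54, adjusted p = 0.000982), and in run 2, with a single Asxl1 KO library and no test, the log2 fold change was 0.76.

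Dnmt3a KO 1 to 4 had 170.1, 135, 210.2 and 187 CPM of Rgs3, overlapping only Asxl1 KO 3. Asxl1 KO was 2.42-fold higher (log2 fold change 1.28 ± 0.25, adjusted p = 0.0181). Asxl1 KO 1, of run 1, had by far the most Rgs3, at 651 CPM. The log2 fold change was 2.08 within run 1 and 0.32 within run 2, each with a single Asxl1 KO library and given without a test. Without Asxl1 KO 1 it fell to 0.81 (adjusted p = 0.315), and it also missed the threshold without Dnmt3a KO 1 (0.136) or 2 (0.171) and with the B cell term (1.20, adjusted p = 0.0908). The call was also lost without the run term, with only the 2 groups in the fit and with replicate number as a further term.

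Rosa KO 1 to 5 had 238, 195, 128, 130.1 and 133.7 CPM of Rgs3, between the Asxl1 KO and Tet2 KO groups on average (165 ± 49.5 CPM, SD, n = 5). Neither difference from the control passed. The log2 fold change was 0.69 ± 0.22 in Asxl1 KO (adjusted p = 0.112) and −0.84 ± 0.24 in Tet2 KO (adjusted p = 0.0894). Both passed in some refits: Asxl1 KO without Asxl1 KO 2 (0.86, adjusted p = 0.0151) and without run 2 (0.82, adjusted p = 0.0265), and Tet2 KO in run 3 (−0.94, adjusted p = 0.0192), with only the 2 groups in the fit (−0.95, adjusted p = 0.0394) and in DESeq2 (−0.87, adjusted p = 0.0295). In Dnmt3a KO the log2 fold change was −0.59 ± 0.27 (adjusted p = 0.576).

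Rgs3 has several starts, and the RefSeq table holds windows for a pair of them, shown because Rgs3 is the other passing member with a window in the table. They lie at GRCm38.p6 chr4:62559597-62559846 and chr4:62619422-62619671, plus strand, with CG in capitals.
Rgs3 upstream start: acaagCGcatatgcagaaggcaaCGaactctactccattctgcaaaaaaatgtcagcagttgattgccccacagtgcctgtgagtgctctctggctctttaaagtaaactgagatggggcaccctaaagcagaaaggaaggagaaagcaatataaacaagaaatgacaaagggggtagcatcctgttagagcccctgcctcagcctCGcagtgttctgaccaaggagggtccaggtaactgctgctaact
Rgs3 downstream start: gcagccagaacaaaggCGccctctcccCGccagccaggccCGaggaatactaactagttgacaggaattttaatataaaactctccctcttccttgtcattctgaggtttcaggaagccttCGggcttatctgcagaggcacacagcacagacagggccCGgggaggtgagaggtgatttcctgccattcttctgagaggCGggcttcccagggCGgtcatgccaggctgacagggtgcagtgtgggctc
The windows held 3 and 7 CG dinucleotides, more than 29.0% and 53.7% of all windows. Members that passed in no comparison had windows on either side of the 17 of Rgs16, with 30 CG dinucleotides for Rgs2, 27 for Rgs10 and 34, 20 and 4 for Rgs19. Rgs1 and Rgs14 sequences were not used here. The gene counts do not tell which start was used. Rgs3 overlaps the antisense gene Gm11209 and Rgs16 the antisense gene Gm28513, and whether counting used the strand is not known, so reads of these partners could be among the counts.

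Rgs2 (gene 19735, mm10 chromosome 1, 143999338 to 144004149, minus strand), 241 kb from Rgs1, was lower on average in Asxl1 KO without passing the test. Rosa KO 1 to 5 had 141, 242, 254, 259 and 238 CPM and Asxl1 KO 1 to 4 had 60.6, 100.2, 148 and 125.9 CPM. Asxl1 KO 3 alone lay above the lowest control, Rosa KO 1. The log2 fold change was −0.87 ± 0.33 (SE, adjusted p = 0.194). It passed within run 3 (−0.86, adjusted p = 0.00198), with only the 2 groups in the fit (−0.96, adjusted p = 0.00885) and without run 2 (−0.96, adjusted p = 0.00154). Dnmt3a KO 1 to 4 had 155, 124.3, 124.3 and 129 CPM, with a log2 fold change of −0.12 ± 0.38 (adjusted p = 0.97). Tet2 KO 1, 3 and 4 had 200, 202 and 184 CPM, and Tet2 KO 2 had 34.4 CPM, the lowest of all libraries (group log2 fold change −0.37 ± 0.34, adjusted p = 0.753).

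At the extremes B cell transcripts went with Rgs2. The 4 libraries with the most Rgs2, Rosa KO 2 to 5, were also the 4 with the highest summed B cell markers, and Tet2 KO 2 was the lowest in both. Libraries in between did not all follow: Dnmt3a KO 3 and 4 had 2592 and 750 CPM of B cell markers but 124.3 and 129 CPM of Rgs2. All 4 Asxl1 KO libraries had 722 to 1500 CPM of B cell markers, below the 2989 to 3346 CPM of Rosa KO 2 to 5. Of the 16 B cell genes 0 passed against Rosa KO in any knockout by edgeR or DESeq2, with 0 at an unadjusted p under 0.05 in edgeR, and their median log2 fold change in Asxl1 KO was −0.92. With the B cell term the Rgs2 difference in Asxl1 KO was −0.54 (adjusted p = 0.276), against −0.87 without it. The part of other cells in the Rgs2 level was not tested.

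Markers of other cells were read against the same background shares (1.64% of tested genes in Asxl1 KO, 0.216% in Dnmt3a KO and 1.47% in Tet2 KO). At an unadjusted p under 0.05 in edgeR the background was 2181, 1115 and 1692 of 13881 genes. By edgeR and by DESeq2, 0 of 4 CD4 T cell, 0 of 6 plasma cell, 0 of 8 neutrophil and 0 of 4 platelet genes passed in any knockout (0 or 1 of each at an unadjusted p under 0.05 in edgeR). The summed CD4 T cell markers were nevertheless highest in Dnmt3a KO, at 72.6 to 113 CPM. They were 15.1 to 45.9 CPM in Rosa KO, 25.5 to 50.2 in Asxl1 KO and 11.7 to 33.3 in Tet2 KO. The part of CD4 T cells in the Rgs1 level was not tested. Of 10 myeloid genes only Itgam passed, lower in all 3 knockouts, and of 8 dendritic cell genes only Bst2, higher in Asxl1 KO and Tet2 KO. Of 7 NK cell genes 3 passed in Asxl1 KO, 2 in Dnmt3a KO and 2 in Tet2 KO. DESeq2 called 2 higher and 3 lower in Asxl1 KO, 0 and 2 in Dnmt3a KO and 1 and 2 in Tet2 KO. The DESeq2 background was 4.88, 1.09 and 2.94% of tested genes. The 7 NK cell markers summed to 1200 to 1690 CPM in Rosa KO and 1010 to 2130 in Asxl1 KO. The sums were 931 to 1310 CPM in Dnmt3a KO and 871 to 1000 in Tet2 KO. The receptor genes Klrb1c (−2.62, −3.65 and −2.38 on the log2 scale in Asxl1, Dnmt3a and Tet2 KO) and Klre1 (−1.59, −1.50 and −0.97) were lower in each knockout, and the transcription factor gene Eomes was higher in Asxl1 KO (1.15). Of 11 T cell genes 5 were higher in Asxl1 KO, 0 in Dnmt3a KO and 1 in Tet2 KO by edgeR. At an unadjusted p under 0.05 in edgeR there were 8, 1 and 2 of the 11, and DESeq2 called 7, 0 and 2 higher. Klrb1c and Klre1 were thus lower in Dnmt3a KO and Tet2 KO, as Rgs1 was, and also in Asxl1 KO, where Rgs1 did not pass. The part of NK-like cells in the Rgs1 level was not tested.

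**Figure D4:**
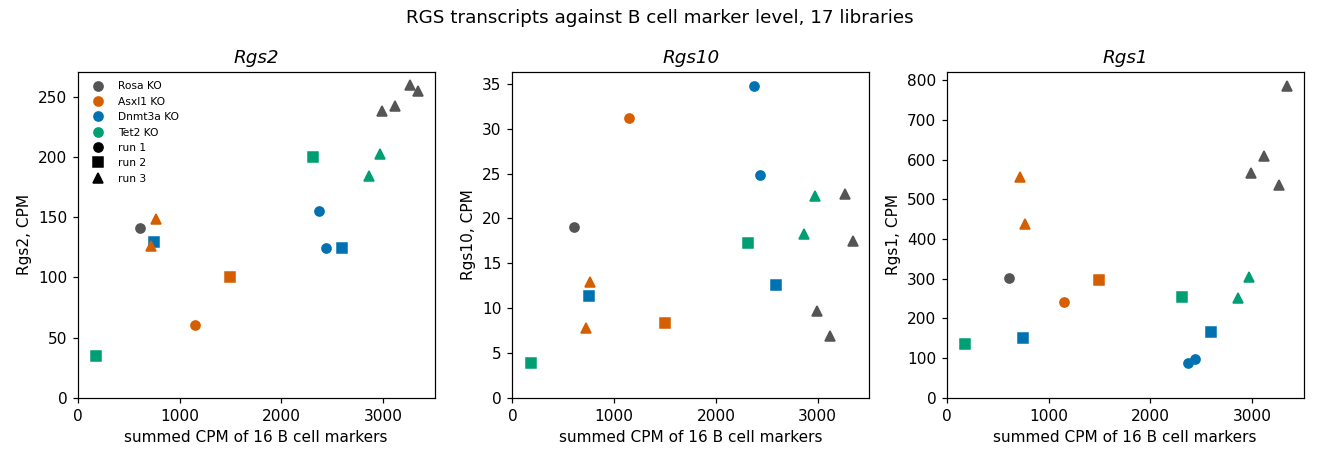
Level of Rgs2, Rgs10 and Rgs1 (CPM) against the summed CPM of 16 B cell markers in each of the 17 libraries, coloured by group and shaped by run. Rosa KO 2 to 5 lie at the upper right for Rgs2, Tet2 KO 2 (34.4 CPM of Rgs2, 180 CPM of B cell markers) at the lower left, and the 4 Dnmt3a KO libraries stay low for Rgs1 at B cell marker levels from 750 to 2590 CPM.

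Rgs10, Rgs14 and Rgs19 did not pass in any of the 6 comparisons. Rgs10 (gene 67865, mm10 chromosome 7, 128373621 to 128419506, minus strand) ranged from 3.84 CPM in Tet2 KO 2 to 34.8 CPM in Dnmt3a KO 1. Its group means lay close together, at 15.2 ± 6.63 CPM in Rosa KO (SD, n = 5), 15.1 ± 11.0 in Asxl1 KO, 20.9 ± 11.1 in Dnmt3a KO and 15.5 ± 8.06 in Tet2 KO (n = 4 each). The 95% intervals against Rosa KO ran from −1.02 to 0.88 on the log2 scale in Asxl1 KO, −0.71 to 1.53 in Dnmt3a KO and −0.48 to 1.41 in Tet2 KO. Differences inside these intervals were compatible with the data.

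Rgs14 (gene 51791, mm10 chromosome 13, 55369732 to 55384687, plus strand) was 25.1 ± 6.99 CPM in Rosa KO and 30.2 ± 2.76 CPM in Tet2 KO. Its lowest levels were 5.86 CPM in Asxl1 KO 1 and 7.45 CPM in Dnmt3a KO 1, both of run 1, where Rosa KO 1 had 23.9 CPM. The log2 fold changes against Rosa KO were −0.26 ± 0.38 in Asxl1 KO (SE, adjusted p = 0.806), −0.07 ± 0.43 in Dnmt3a KO (0.985) and 0.03 ± 0.40 in Tet2 KO (0.99). Rgs19 (gene 56470, mm10 chromosome 2, 181688419 to 181694537, minus strand) was the least variable member, at 72.2 ± 8.53 CPM in Dnmt3a KO, 82.1 ± 16.3 in Tet2 KO, 80.2 ± 40.1 in Rosa KO and 98.3 ± 53.2 in Asxl1 KO. In run 1 Asxl1 KO 1 had 174 CPM of it against 42.0 CPM for Rosa KO 1, 1 library against 1, whereas in run 3 the log2 fold change was −0.12 (adjusted p = 0.896). Over all libraries it was 0.39 ± 0.33 (adjusted p = 0.625).

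Set against each other, Asxl1 KO differed from the other two knockouts in Rgs1 and Rgs3. Against Dnmt3a KO 2 of 7 members passed (background 0.353%), and against Tet2 KO 2 of 7 passed (background 0.562%), all higher in Asxl1 KO. Rgs1 was 2.25-fold higher than in Dnmt3a KO (log2 fold change 1.17 ± 0.19, SE, adjusted p = 0.00451), and the lowest Asxl1 KO library (241 CPM) lay above the highest Dnmt3a KO library (167 CPM). Against Tet2 KO Rgs1 was 1.74-fold higher (0.80 ± 0.18, adjusted p = 0.0371), with overlapping groups. That last call was lost without any of 5 libraries: Tet2 KO 2 (adjusted p = 0.0884), 3 (0.0968) or 4 (0.205) and Asxl1 KO 3 (0.0641) or 4 (0.163). Without the run term neither Rgs1 difference passed (1.601 with adjusted p = 0.0649, and 0.69 with adjusted p = 0.735). Nor did either Rgs3 difference, which against Tet2 KO was 1.57 (adjusted p = 0.0539). With replicate number as a further term, Rgs1 did not pass against Dnmt3a KO (1.095, adjusted p = 0.147) or Tet2 KO (0.87, adjusted p = 0.0799). With only the 2 groups in the fit, Rgs1 did not pass against Tet2 KO (0.74, adjusted p = 0.202).

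Between Dnmt3a KO and Tet2 KO 0 of 7 members passed by edgeR (background 0.0937%) and 1 by DESeq2 (background 0.526%). At an unadjusted p under 0.05 in edgeR there was 1 of 7, beside 778 of all 13881 tested genes. Rgs16 was that member, higher in Dnmt3a KO by 1.31 ± 0.30 on the log2 scale (adjusted p = 0.102 by edgeR and 0.00298 by DESeq2). Its 4 Dnmt3a KO libraries (22.1 to 36 CPM) overlapped the 4 Tet2 KO libraries (13.6 to 27.8 CPM) through Dnmt3a KO 1. For Rgs1 the difference was −0.37 (95% interval −0.77 to 0.03, adjusted p = 0.903). In edgeR without the low count filter Rgs16 also passed (1.33, adjusted p = 0.0361), so the Rgs16 call depended on the tool and on the filter.

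**Figure D5:**
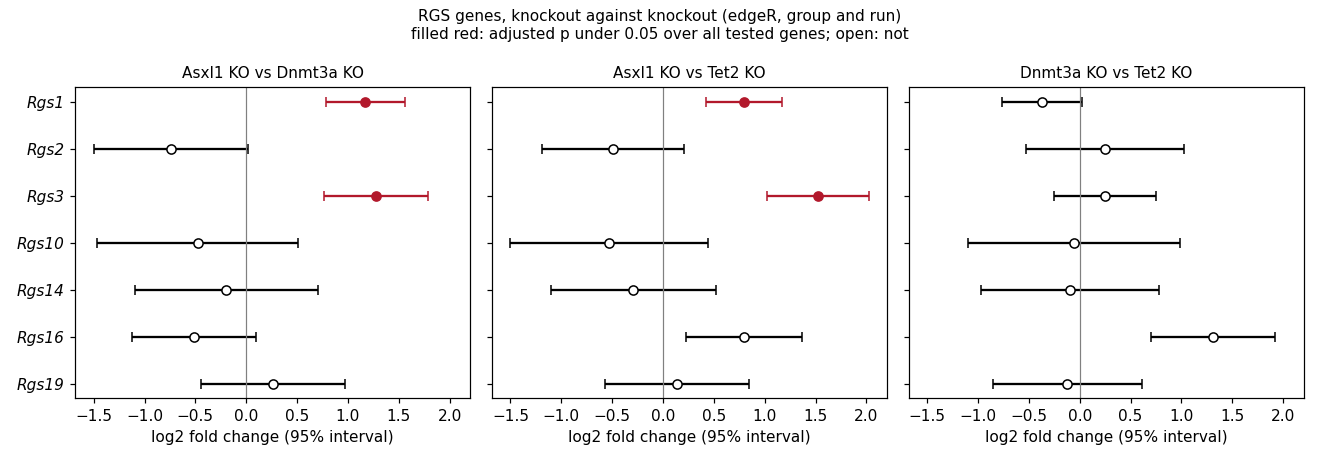
Log2 fold change of each RGS gene between pairs of knockouts, with 95% intervals from edgeR. Filled red points passed over all tested genes: Rgs1 and Rgs3 were higher in Asxl1 KO than in Dnmt3a KO (1.17 and 1.28) and than in Tet2 KO (0.80 and 1.52).

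The genes of the G proteins on which RGS proteins act did not pass by edgeR. The background shares were 1.64, 0.216 and 1.47% of tested genes in Asxl1, Dnmt3a and Tet2 KO. At an unadjusted p under 0.05 in edgeR they were 2181, 1115 and 1692 of 13881 genes. Of 12 tested alpha subunit genes and 11 tested beta and gamma subunit genes, 0 passed against Rosa KO in any knockout by edgeR (0 to 2 of each list at an unadjusted p under 0.05). DESeq2 called 1 of them, Gnaz, lower in Asxl1 KO. Of 12 tested other regulators of G proteins and receptors, Gpsm2, a GoLoco protein that binds Gi alpha subunits, passed and was higher in Tet2 KO (log2 fold change 1.64 ± 0.36, adjusted p = 0.0228). It overlaps Clcc1 on the opposite strand, so its counts are uncertain. Of these 12 regulators, 6, 1 and 3 had an unadjusted p under 0.05 in Asxl1, Dnmt3a and Tet2 KO. DESeq2 called Gpsm3 higher in Asxl1 KO and Gpsm2 higher in Tet2 KO, where its background was 4.88 and 2.94% of tested genes. Of 22 tested effectors, the small GTPase Rap1b was lower in Asxl1 KO (−0.88 ± 0.15, adjusted p = 0.00199) and 0 passed in Dnmt3a KO and Tet2 KO by edgeR (3 and 5 at an unadjusted p under 0.05, and 0 and 1 by DESeq2). In Asxl1 KO 4 effectors had an unadjusted p under 0.05 in edgeR, and DESeq2 called 1 higher and 2 lower.

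Among 23 tested chemoattractant receptor genes, 1 was higher and 2 were lower in Asxl1 KO, 0 was higher and 1 lower in Dnmt3a KO, and 2 were higher and 1 lower in Tet2 KO. Over all tested genes 1.64, 0.216 and 1.47% passed in Asxl1, Dnmt3a and Tet2 KO. At an unadjusted p under 0.05 in edgeR it was 2181, 1115 and 1692 of 13881 genes, and 9, 7 and 8 of the 23 receptor genes. S1pr5, a receptor for sphingosine 1-phosphate, was lower in all 3 knockouts: −2.04 in Asxl1 KO, −2.14 in Dnmt3a KO and −1.80 in Tet2 KO on the log2 scale. The chemokine receptor Cxcr3 was higher in Asxl1 KO (1.40) and Tet2 KO (1.23), Ccr2 was higher in Tet2 KO (1.11) and Cx3cr1 lower in Asxl1 KO (−0.98). Of 26 immediate early genes, which Rgs1 and Rgs2 resemble in being inducible, 1 was higher and 3 were lower in Asxl1 KO by edgeR. In Dnmt3a KO 0 passed, and in Tet2 KO 1 was lower, the nuclear receptor Nr4a2 (−1.15 ± 0.25, adjusted p = 0.0201). The passing genes with the lowest adjusted p in Asxl1 KO were Ier3 (2.49), Klf6 (−1.29) and Ier5 (−0.96). At an unadjusted p under 0.05 in edgeR there were 14, 6 and 8 of the 26 in Asxl1, Dnmt3a and Tet2 KO. DESeq2 called 1 higher and 7 lower in Asxl1 KO, 1 lower in Dnmt3a KO and 2 lower in Tet2 KO. The DESeq2 background was 4.88, 1.09 and 2.94% of tested genes. The list's median log2 fold change was −0.76 in Asxl1 KO, −0.57 in Dnmt3a KO and −0.62 in Tet2 KO.

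Across the 17 libraries and among 9691 genes averaging 5 CPM or more, the genes whose log2 CPM followed Rgs1 most closely were the chemokine gene Ccl4 (Pearson r = 0.889), the activation marker Cd69 (0.867), Rab37 (0.849), Mbip (0.842) and the cytokine gene Ifng (0.838). For Rgs16 they were Rpa2 (0.853), Tmem37 (0.842), Ugcg (0.832), Chit1 (0.822) and Snord19 (0.815), a small nucleolar RNA inside Gnl3 whose counts may hold host reads. Among the members themselves, Rgs1 and Rgs16 (0.656), Rgs2 and Rgs16 (0.634) and Rgs1 and Rgs2 (0.533) varied in the same direction, whereas Rgs10 and Rgs14 varied in opposite directions (−0.619). These values describe the same 17 libraries, which share groups, runs and depth, and carry no test.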

How the data were processed

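RNA was isolated with a Direct-zol kit and libraries were made with a stranded total RNA kit (TruSeq), per the labels' protocols. The molecule field reads genomic DNA, but the series type and protocols describe RNA. The authors deposited 1 table of raw counts per library, with gene identifiers and symbols for 24594 genes. Per the submitters' processing notes, STAR 2.5.3a, DESeq2 1.26.0 and the build mm10 were used, in roles not spelled out. The counting tool, annotation and strand setting are not stated, which leaves overlapping genes uncertain. Rows with no symbol (3) held at most 0.0003% of counts and named no member.

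All 17 libraries entered 1 edgeR 4.0.16 fit with TMM scaling (R 4.3.3, robust quasi-likelihood F test, group and run as terms, 11 residual degrees of freedom) after filterByExpr (minimum count 10, total 15), which left 13881 genes. P-values were adjusted by Benjamini-Hochberg over these genes, with 0.05 as the threshold. Standard errors and 95% intervals were derived from the F statistic. Log2 CPM for correlations used a prior count of 2. The step was tested on simulated counts. Coordinates, 1-based, and promoter sequences are from RefSeq (GRCm38.p6, the assembly of mm10), and exon lengths from GENCODE M21. The promoter table had entries for 5 of the 7 members.

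The members and gene lists were chosen with earlier results of these data known. All 7 members are named in each comparison. Of each list up to 3 passing genes with the lowest adjusted p are named, and for members passing against Rosa KO the 5 genes with the closest pattern, leaving out predicted genes. Marker lists covered T, CD4 T, B, plasma, myeloid, dendritic and NK cells, neutrophils and platelets. Alternatives were no run term, RLE size factors, DESeq2 1.42.0, no filter, a stricter filter, a replicate block, a B cell term, only the 2 groups compared, 1 run alone, each library left out and, added after the data were seen, no run 2.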

Additional observations from a re-analysis of the deposited data

Results flagged for a closer look

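Within a group of 4 or 5 libraries, a value was picked out when its gap to the nearest other library took up an unusual share of the group's range (Dixon's criterion). Of 28 combinations of gene and group checked, 5 met it, where chance gives about 1 in 20. Rgs2 was low in Rosa KO 1 (140.7 CPM), high in Dnmt3a KO 1 (155.1 CPM) and low in Tet2 KO 2 (34.4 CPM). Rgs10 was low in Tet2 KO 2 (3.84 CPM), and Rgs16 was low in Dnmt3a KO 1 (22.1 CPM).

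Tet2 KO 2, low for both Rgs2 and Rgs10, also had the lowest summed level of all 17 libraries for B cell markers (180 CPM), myeloid markers (294 CPM), neutrophil markers (3.21 CPM) and platelet markers (2.08 CPM). Rosa KO 1 had 606 CPM of B cell markers against 2989 to 3346 CPM in the other 4 Rosa KO libraries, and it is the only control library of run 1. The part of these differences in the Rgs2 and Rgs10 values was not tested. Without Tet2 KO 2 the log2 fold change of Rgs2 in Tet2 KO against Rosa KO was −0.19 (adjusted p = 0.772) and that of Rgs10 was 0.63 (adjusted p = 0.601).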

How the results depend on the processing

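Of 777 refitted log2 fold changes of the 7 members, 669 kept sign and call, 62 changed sign without passing in either fit, 28 lost a call, 18 gained one and 0 reversed. Comparisons are given below in the order Asxl1, Dnmt3a and Tet2 KO against Rosa KO, Asxl1 against Dnmt3a KO, Asxl1 against Tet2 KO and Dnmt3a against Tet2 KO, and the cause of each change was not tested. The share of tested genes that passed was 1.64, 0.216, 1.47, 0.353, 0.562 and 0.0937%. It was 0.166, 0.137, 0.166, 0.0432, 0.195 and 0.0072% without the run term, 4.88, 1.09, 2.94, 1.58, 1.27 and 0.526% with DESeq2, and 2.68, 0.59, 1.78, 1.46, 0.906 and 0.311% without a filter. The stricter filter gave 3.0, 0.37, 2.31, 0.58 and 0.91% in the first 5. Asxl1 against Dnmt3a KO gave 0.144% with the B cell term and 0.149% with only the 2 groups, where Dnmt3a against Rosa KO gave 0.335%. Within run 1 the share was 4.44% for Asxl1 against Rosa KO and 9.51% against Dnmt3a KO, and within run 2 it was 0% for Asxl1 against Dnmt3a KO and 0.163% against Tet2 KO. These fits within run 1 and run 2 have 1 and 2 residual degrees of freedom and a group of 1 library, assumed to vary like the others, and their calls were not used. Within run 3 it was 4.42% for Asxl1 and 2.9% for Tet2 against Rosa KO, and 1.14% for Asxl1 against Tet2 KO. Without run 2, a choice made after seeing the data, Asxl1 against Rosa KO gave 2.67%. Leaving out 1 library gave 0.563 to 2.61, 0.147 to 0.261, 0.23 to 1.39, 0.077 to 1.65, 0.244 to 0.609 and 0.014 to 0.077%.

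RGS genes passing numbered 0, 1, 2, 2, 2 and 0. Without the run term they numbered 0 in Tet2 against Rosa KO and in Asxl1 against both other knockouts. In Asxl1 against Rosa KO they were 2 without a filter, 1 with only the 2 groups, 2 within run 1, 1 within run 3 and 2 without run 2. In Asxl1 against Dnmt3a KO they were 1 with the B cell term, 1 with only the 2 groups, 4 within run 1 and 0 within run 2. In Asxl1 against Tet2 KO they were 1 with only the 2 groups and 0 within run 2, and in Dnmt3a against Tet2 KO 1 with DESeq2 and 1 without a filter. Leaving out 1 library gave 0 to 1, 1 to 1, 1 to 2, 1 to 2, 1 to 2 and 0 to 0. The Rgs1 calls in Dnmt3a KO and in Tet2 KO against Rosa KO each held in 9 of 9 such refits.

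The groups share replicate numbers, but the numbers did not pair the libraries. Deviations of 24 same-numbered pairs correlated between −0.206 and 0.163, with 2 pairs over 0.1 and 14 in different runs, and 4 of 17 libraries were closest to their own number. With the replicate block added, 0.367, 0, 0.375, 0.0144, 0.267 and 0.0072% of tested genes passed, and RGS genes passing were 0, 0, 1, 0, 1 and 0. With the block Rgs1 was −1.48 (adjusted p = 0.265) in Dnmt3a KO and −1.25 (adjusted p = 0.0057) in Tet2 KO against Rosa KO.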
